A study of Mus musculus with 6 samples.

Results

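To describe the fibroblast growth factor (FGF) pathway in dental papilla cells after Setd2 ablation, 41 protein-coding genes were taken from the count table by their names. They were 13 genes of secreted FGF ligands, 4 of intracellular FGF homologous factors, 5 of receptors, 2 of klotho co-receptors, 2 of ligand carriers, 2 of FRS adaptors and 13 of feedback inhibitors and targets (Sprouty, Spred, the ERK phosphatases Dusp4, Dusp5 and Dusp6, and the ETS factors Etv1, Etv4 and Etv5). The rule of names used no measured value, but earlier results of these data were known when it was made. The table held 31613 genes, of which 17981 were protein-coding. Of the 41 FGF genes, 31 had enough counts for a test and 10 did not. Fgf4, Fgf5, Fgf6 and Fgf15 were not analysed here.

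The mDPCs (mouse dental papilla cells) were sequenced at postnatal day 6 (P6), in 3 RNA-seq libraries of Dmp1-Cre;Setd2 fl/fl conditional knockout (cKO) mice and 3 of control mice. Setd2 encodes the methyltransferase that trimethylates histone H3 at lysine 36. Dmp1-Cre removes the floxed allele where the Dmp1 promoter is active, in teeth mainly in odontoblasts, so the other cells of a library keep the gene. Control mice were labelled wild type, whereas the study's methods give them as Setd2 fl/fl, and all mice were on the C57BL/6J background. Each library held equal masses of RNA from 3 biological replicates. The study's list of animals holds fewer mice per genotype for this experiment than 3 separate pools of 3 would need, so pools may share mice, and p-values here measure only the spread between libraries, which may be technical.

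FGF ligands bind receptor tyrosine kinases together with heparan sulfate, and the active receptor passes its signal through FRS adaptors and RAS to the kinase ERK. ERK activates ETS factors and, in a negative feedback loop, the Sprouty, Spred and phosphatase genes that restrain the pathway. In the developing mouse tooth, epithelial ligands such as Fgf8 and Fgf9 act on the mesenchyme, and mesenchymal Fgf3 and Fgf10 act back on the epithelium.

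Depth was even, at 18557647 to 19164358 counts per cKO library and 18894240 to 19210750 per control library. Setd2 itself had 96 to 102 CPM (TMM-scaled counts relative to library size) in cKO libraries and 92 to 98 CPM in control libraries; the counts cover the whole gene, so they do not check the deletion. Dental papilla markers were present throughout, with a summed level over 10 genes of 1533 to 2186 CPM in cKO and 1916 to 1987 CPM in control libraries. Summed over 8 genes, odontoblast markers reached 6017, 4079 and 36743 CPM in cKO replicates 1, 2 and 3 and 71727, 74004 and 81583 CPM in the 3 control replicates. Most of each sum came from Col1a1 and Dspp, which had 29999 and 5299 CPM in cKO replicate 3. Dental epithelium markers (12 genes, all detected) summed to 7200, 2305 and 50278 CPM in cKO, against 7452, 2800 and 30498 CPM in control libraries. Replicate 3 of both groups therefore stood apart from the other 4 libraries in epithelial RNA, and cKO replicate 3 stood apart from its group in odontoblast RNA, so the results that change most with them are given with and without them.

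The study called a gene at an unadjusted p under 0.05 together with a log2 fold change of 0.58 or more, up or down. By edgeR's quasi-likelihood test none of the 31 tested FGF genes met both thresholds. Over all 16519 tested genes, 3.81% passed. At an unadjusted p under 0.05 alone, Fgfr1 and Etv1 were lower and Spred1 was higher, 3 of 31 FGF genes (9.68%) against 7.58% of all genes. No FGF gene and no other gene passed an adjusted p under 0.05 in edgeR, and DESeq2 likewise gave 0 FGF genes at that threshold, with 0.841% of all genes. Log2 fold changes, cKO over control, of the FGF genes had a median of 0.01 (15 negative, 16 positive, range -0.87 to 0.67), beside 0.02 over all genes.

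The 3 genes below p 0.05 were also the only tested FGF genes whose groups did not overlap, 3 of 31 (9.68%), where 15.2% of all tested genes had no overlap. The share was thus not above the background. In an edgeR fit with the replicate number as a block, 6 FGF genes had an unadjusted p under 0.05 (Fgf10, Fgfr1, Fgfr3, Spred1, Etv1 and Etv5; 19.4%, against 17.3% of all genes), and Fgf10 alone passed the study's thresholds (3.23%, against 6.42%). In bulk RNA, fewer cells of a type and less RNA per cell cannot be told apart, which holds for every level below.

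**Figure D1:**
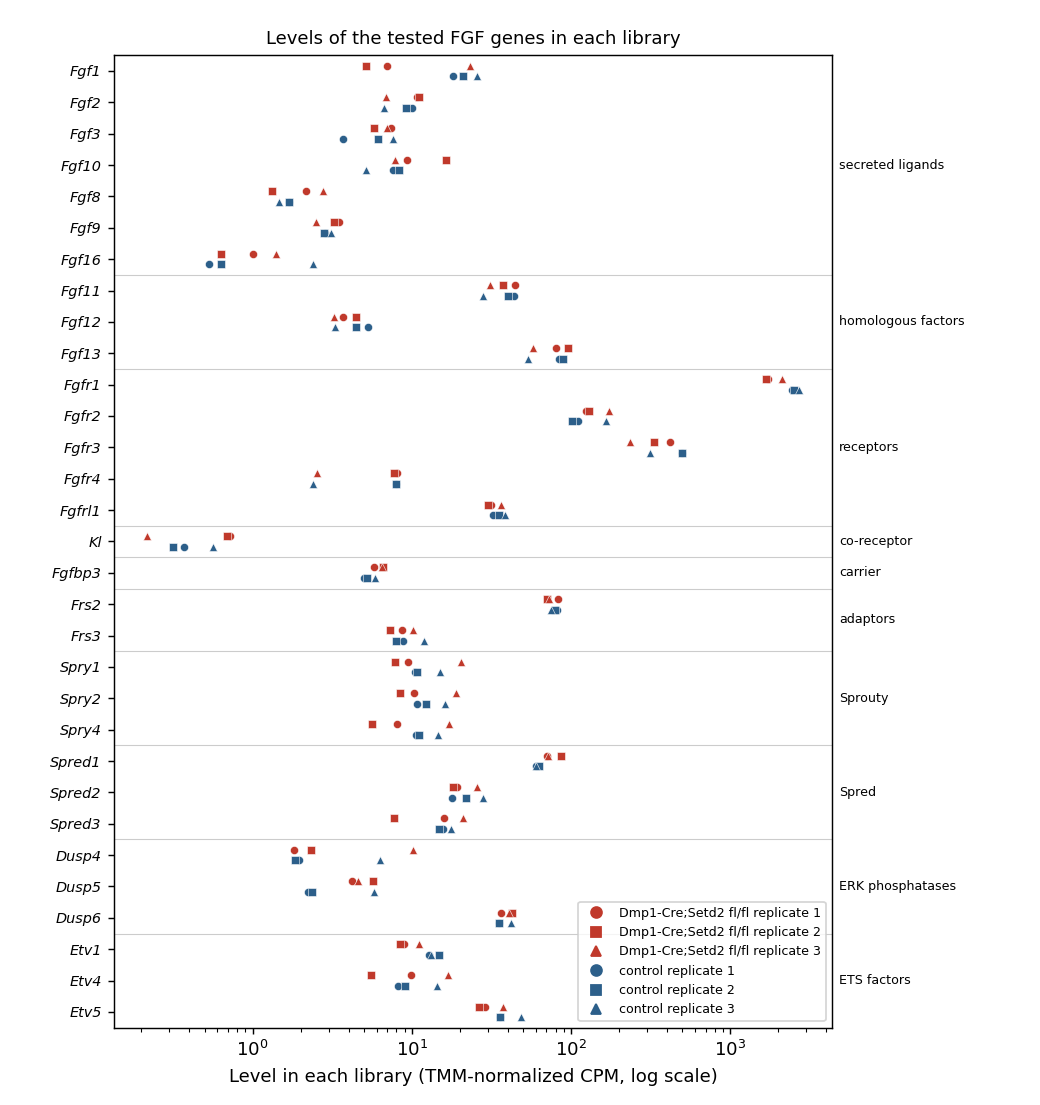
Level of each of the 31 tested FGF genes (rows, grouped by role) in each of the 6 libraries, in TMM-normalized CPM on a log scale. Red marks show cKO (Dmp1-Cre;Setd2 fl/fl) and blue marks control libraries, with circle, square and triangle for replicates 1, 2 and 3; only Fgfr1, Spred1 and Etv1 have red and blue marks that do not overlap, and in many rows the triangles of both colours lie to the same side.

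To compare levels between genes, CPM was divided by the length of each gene's merged exons in kb. Fgfr1 had by far the highest level of the 41 genes, at 173 CPM per kb over the 6 libraries, followed by Fgfr3 at 43.3 CPM per kb. Next came Fgf11 at 12.2, Fgfr2 at 11.8, Dusp6 at 11.4, Fgf13 at 11, Spred1 at 8.86 and Frs2 at 8.17 CPM per kb. Secreted ligands were low, with Fgf3 the highest of them at 2.07 CPM per kb, then Fgf1 at 1.97 and Fgf10 at 1.84 CPM per kb. Fgfr1, Fgfr2 and Fgfr3 transcripts were thus far more abundant per length than any secreted ligand transcript in these libraries, whereas Fgfr4, at 1.38 CPM per kb, was in the ligand range.

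Among the receptors, Fgfr1, the main mesenchymal FGF receptor, had 1737, 1686 and 2125 CPM in cKO libraries (replicates 1, 2 and 3, the order kept below), against 2452, 2505 and 2717 CPM in control libraries. Every cKO library lay below every control library. Per length, Fgfr1 averaged 145 ± 18.8 CPM per kb in cKO and 200 ± 11 CPM per kb in control libraries (SD, n = 3 each). Its log2 fold change was -0.47 (SE 0.15; 95% interval -0.82 to -0.11; edgeR adjusted p = 0.626). Its size stayed under the study's 0.58 with all libraries and reached -0.58, a call, without cKO replicate 3 (edgeR adjusted p = 0.104). Leaving out cKO replicate 1, control replicate 2 or control replicate 3 gave -0.42, -0.48 and -0.42, no longer below an unadjusted p of 0.05. The gene lies on chromosome 8, positions 25513654 to 25575718 as deposited, which match build GRCm38.

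Fgfr3, the second receptor by level, which is known for restraining bone growth in cartilage, had 421, 332 and 235 CPM in cKO against 494, 494 and 315 CPM in control libraries. Each cKO library was below its same-numbered control library, but the groups overlapped because replicate 3 was low in both. The log2 fold change was -0.40 (SE 0.26; edgeR adjusted p = 0.718), and with replicate number as a block -0.41 (adjusted p = 0.158), short of the study's size threshold.

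Fgfr2, whose isoforms serve epithelial and mesenchymal cells, had 124, 129 and 173 CPM in cKO against 110, 102 and 165 CPM in control libraries (log2 fold change 0.18, SE 0.22). Without replicate 3 of both groups it was 0.26 (SE 0.11; edgeR adjusted p = 0.182), and without cKO replicate 3 alone it was 0.01. Each cKO library was above its same-numbered control library, and the groups overlapped. The deposited span of Fgfr2 covers 2960900 bases and 50 other genes, so its counts are uncertain. Fgfr4 had 8.04, 7.74 and 2.55 CPM in cKO against 7.96, 8 and 2.38 CPM in control libraries. Replicate 3 was low in both groups, and the 2 means were equal at 6.11 CPM. Fgfrl1, a receptor-like protein without a kinase domain, had 30.1 to 36.4 CPM in cKO and 32.4 to 38.3 CPM in control libraries (log2 fold change -0.12, SE 0.12).

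As a share of the summed Fgfr1 to Fgfr4 level per kb, Fgfr1 took 69.2%, 72.2% and 79.7% in cKO and 74%, 74.6% and 80.7% in control libraries. Fgfr2 took 5.57%, 6.23% and 7.31% in cKO against 3.74%, 3.42% and 5.51% in control libraries. At every replicate number, then, the share of Fgfr1 was lower and that of Fgfr2 higher in cKO. The shares add up to a whole, so a lower Fgfr1 share by itself raises the others, and the Fgfr2 counts are uncertain. Fgfr3 took 12.8% to 24.3% in cKO and 13.6% to 21.6% in control libraries, with the lowest share in replicate 3 of each group. The summed receptor level was 196, 183 and 209 CPM per kb in cKO against 259, 263 and 263 CPM per kb in control libraries, without overlap, and Fgfr1 made up most of that difference. These shares are descriptions and were not tested.

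**Figure D2:**
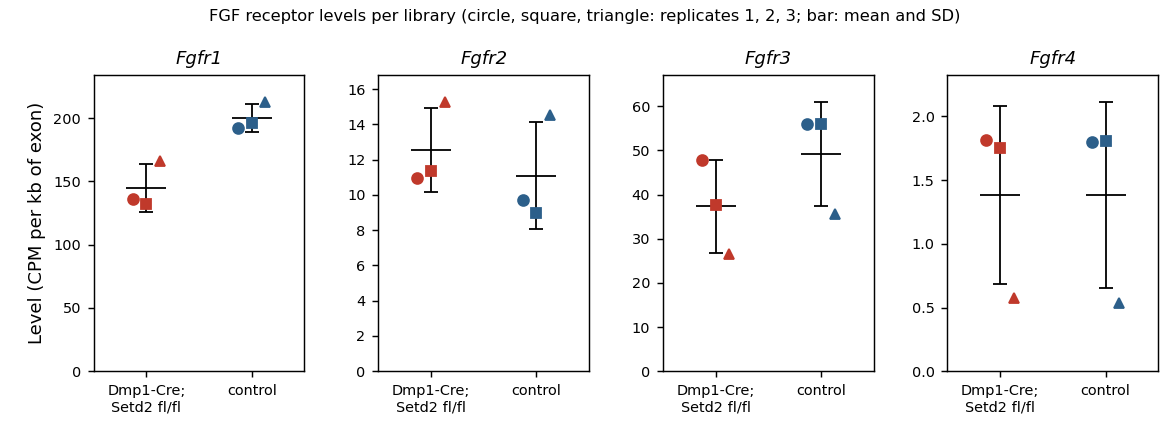
Level of Fgfr1, Fgfr2, Fgfr3 and Fgfr4 in each library, in CPM per kb of merged exon, each panel with its own axis from 0. Red marks are cKO (Dmp1-Cre;Setd2 fl/fl) and blue marks control libraries (circle, square and triangle for replicates 1, 2 and 3), and the bars give mean and SD of 3 libraries; the groups separate for Fgfr1 only, at 145 ± 18.8 against 200 ± 11 CPM per kb.

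Of the 13 secreted ligand genes, 7 were tested, none passed the study's thresholds, and 5 had a positive and 2 a negative log2 fold change. Fgf1, a ligand that binds every FGF receptor, had 7.03, 5.14 and 23.2 CPM in cKO, against 18.1, 20.9 and 25.5 CPM in control libraries. Replicates 1 and 2 of cKO were below every control library, whereas replicate 3 lay among the control libraries. The log2 fold change was -0.87 (SE 0.55; 95% interval -2.19 to 0.46; edgeR adjusted p = 0.712). Leaving out cKO replicate 1 or 2 gave -0.60 and -0.51. Leaving out control replicate 1, 2 or 3 gave -0.98, -0.89 and -0.73, and none of these was a call. Without replicate 3 of both groups the log2 fold change was -1.67 (edgeR adjusted p = 0.000785), and without cKO replicate 3 alone it was -1.82 (edgeR adjusted p = 0.00523). Leaving out that single library, 5 of 32 FGF genes met the study's thresholds (Fgf1, Fgfr1, Spry4 and Etv1 lower and Fgf10 higher; 10.9% of all genes), and Fgf1 alone passed an adjusted p under 0.05, where 3.33% of all genes did. Dspp, the dentin sialophosphoprotein gene of odontoblasts, was likewise higher in cKO replicate 3 (5299 CPM) than in its replicates 1 and 2 (436 and 215 CPM), with 13900 to 14372 CPM in control libraries. What odontoblast RNA contributed to the Fgf1 levels was not tested. Fgf1 overlaps Arhgap26 and counting ignored strand, so reads shared by the pair could not be told apart.

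Fgf10, the mesenchymal ligand of the mouse incisor and molar papilla, had 9.28, 16.3 and 7.87 CPM in cKO against 7.64, 8.26 and 5.16 CPM in control libraries. Each cKO library exceeded its same-numbered control library, but cKO replicate 3 lay below control replicate 2. It had the highest log2 fold change of the 31 genes, 0.67 (SE 0.33; 95% interval -0.10 to 1.44; edgeR adjusted p = 0.678). It met the study's thresholds with replicate number as a block (0.63, edgeR adjusted p = 0.149) and without cKO replicate 3 (0.86, edgeR adjusted p = 0.17). Without cKO replicate 2, the highest library, it was 0.29. Fgf10 lies on chromosome 13, positions 118669791 to 118792115.

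Fgf3, the other papilla ligand that acts on the epithelium, had 7.41, 5.78 and 7.01 CPM in cKO against 3.71, 6.11 and 7.6 CPM in control libraries (log2 fold change 0.21, SE 0.29; edgeR adjusted p = 0.858). The groups overlapped widely, and 1 control library was low. Fgf8, an epithelial ligand of early tooth development, had 2.15, 1.33 and 2.77 CPM in cKO against 1.7, 1.68 and 1.47 CPM in control libraries (log2 fold change 0.36, SE 0.32). Here the cKO libraries lay on either side of the control libraries. Fgf16, a relative of Fgf9, had 1, 0.636 and 1.41 CPM in cKO against 0.53, 0.632 and 2.38 CPM in control libraries, the highest value in each group being replicate 3. Its log2 fold change of -0.21 (SE 0.63) turned to 0.51 without replicate 3 of both groups. Fgf2, a mitogen widely made by mesenchyme, and Fgf9, an epithelial ligand, had log2 fold changes of 0.15 and 0.07.

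The intracellular FGF homologous factors are not secreted and bind voltage-gated sodium channels. Fgf11 had 44.7, 37.2 and 30.8 CPM in cKO against 43.6, 40.4 and 27.9 CPM in control libraries (log2 fold change 0.01; 95% interval -0.48 to 0.50). Fgf13 had 57.8 to 95.6 CPM in cKO and 53.3 to 89.3 CPM in control libraries (log2 fold change 0.05; 95% interval -0.55 to 0.64), and Fgf12 had a log2 fold change of -0.20. All 3 were lowest in replicate 3 of their group and overlapped between groups.

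Of the co-receptors and carriers, Kl, which encodes klotho, was close to the limit of detection, at 0.717, 0.689 and 0.217 CPM in cKO against 0.371, 0.316 and 0.567 CPM in control libraries, from 55 counts in all. Its log2 fold change of 0.38 (SE 0.52) had an edgeR adjusted p of 0.863. Fgfbp3, which releases bound FGF from the matrix, had 5.79, 6.63 and 6.46 CPM in cKO against 4.99, 5.26 and 5.9 CPM in control libraries. Only cKO replicate 1 reached into the control range (log2 fold change 0.23, SE 0.18; edgeR adjusted p = 0.753).

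The adaptors differed little. Frs2, which docks GRB2 and SHP2 to the active receptor, had 82.5, 70.5 and 72.2 CPM in cKO against 81.6, 79.1 and 74.9 CPM in control libraries. With overlapping groups, its log2 fold change was -0.07 (SE 0.10; 95% interval -0.31 to 0.18). A change of the study's threshold size lies outside this interval, which covers only the spread between libraries. Frs3, the related adaptor, overlaps other transcripts and had a log2 fold change of -0.14 (SE 0.23).

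Of the 13 feedback inhibitors and targets, 12 were tested, none passed the study's thresholds, and 6 had a positive and 6 a negative log2 fold change, with a median of -0.01. Spry1, a Sprouty inhibitor of receptor signalling to RAS, had 9.52, 7.85 and 20.5 CPM in cKO against 10.5, 10.7 and 15.1 CPM in control libraries. Replicate 3 was the highest library of each group, and more so in cKO. The log2 fold change was 0.06 (SE 0.38) with all libraries and -0.47 (edgeR adjusted p = 0.277) without cKO replicate 3. Spry2 and Spry4 had the same order of libraries, with log2 fold changes of -0.06 and -0.24 with all libraries and -0.47 and -0.82 without cKO replicate 3. Spry4 was called in that setting (edgeR adjusted p = 0.123). Without replicate 3 of both groups it was -0.65 on the log2 scale (edgeR adjusted p = 0.0955).

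Spred1, which recruits neurofibromin to switch RAS off, had 70.8, 86.9 and 71.2 CPM in cKO, against 60.4, 62.6 and 60.6 CPM in control libraries. Every cKO library was above every control library, and replicate 3 did not stand apart in either group. The mean was 76.3 ± 9.2 CPM in cKO and 61.2 ± 1.2 CPM in control libraries (SD, n = 3 each). The log2 fold change was 0.32 (SE 0.11; 95% interval 0.05 to 0.59; edgeR adjusted p = 0.626). It was positive with every library left out in turn, from 0.21 without cKO replicate 2 to 0.37 without replicate 1, and it was not below an unadjusted p of 0.05 once any control library was left out (0.31, 0.33 and 0.31). Spred2 and Spred3, its paralogs, had log2 fold changes of -0.11 and -0.10 with overlapping groups. Spred1 lies on chromosome 2, positions 117121374 to 117182279.

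The promoter of Spred1 is shown because it is the only tested FGF gene that was higher in all 3 cKO libraries than in any control library. The RefSeq window (GRCm38.p6, chr2:117120821-117121120, plus strand) runs from 250 bases before the start site, with the 50 bases from the start site on in capitals. It has 72.3% GC and 40 CpG dinucleotides, against a median of 52.7% and 7 over all promoter windows.
Spred1: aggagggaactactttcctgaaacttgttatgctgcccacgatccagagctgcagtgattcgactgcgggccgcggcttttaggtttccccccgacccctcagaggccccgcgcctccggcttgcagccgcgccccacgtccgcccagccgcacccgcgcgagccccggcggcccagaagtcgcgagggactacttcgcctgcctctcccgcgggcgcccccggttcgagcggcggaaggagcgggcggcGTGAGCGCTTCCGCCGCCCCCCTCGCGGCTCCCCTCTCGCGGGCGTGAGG

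Dusp6, the cytosolic ERK phosphatase often read as a marker of FGF signalling, had 36.4, 42.4 and 40.6 CPM in cKO against 35.1, 35.3 and 42 CPM in control libraries. The groups overlapped, and the log2 fold change was 0.09 (SE 0.12; 95% interval -0.20 to 0.37; edgeR adjusted p = 0.866). Changes of the study's threshold size lie outside this interval, which covers only the spread between libraries. Dusp4, a nuclear phosphatase, had 1.82, 2.33 and 10.2 CPM in cKO against 1.96, 1.84 and 6.35 CPM in control libraries. Replicate 3 was several-fold above the other libraries in both groups, which left its log2 fold change at 0.50 with an SE of 0.80. Dusp5, a nuclear ERK phosphatase, had 4.21, 5.73 and 4.56 CPM in cKO against 2.23, 2.37 and 5.78 CPM in control libraries. Control replicate 3 was the highest of the 6, and without it the log2 fold change of 0.48 (SE 0.40; edgeR adjusted p = 0.76) became 1.07 (edgeR adjusted p = 0.639) and met the study's thresholds. Without replicate 3 of both groups Dusp5 was 1.11 on the log2 scale (edgeR adjusted p = 0.0328). Over the 14 settings its log2 fold change ranged from 0.25 to 1.11, and 3 of them gave a call.

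Etv1, an ETS factor induced by FGF signalling, had 8.9, 8.43 and 11.1 CPM in cKO, against 12.9, 14.8 and 13.2 CPM in control libraries. All cKO libraries lay below all control libraries. The mean was 9.49 ± 1.44 CPM in cKO and 13.6 ± 1.06 CPM in control libraries (SD, n = 3 each). This is a log2 fold change of -0.52 (SE 0.17; 95% interval -0.92 to -0.12; edgeR adjusted p = 0.626). Leaving out 1 library at a time kept it between -0.65 and -0.44, and it was called at -0.65 (edgeR adjusted p = 0.0915) without cKO replicate 3. Without cKO replicate 1 (-0.48) or control replicate 2 (-0.46) it was not below an unadjusted p of 0.05.

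Etv5, the most abundant of the 3 ETS genes per length, had 28.8, 26.4 and 37.4 CPM in cKO against 35.6, 35.9 and 48.7 CPM in control libraries. Each library was below its same-numbered control library, while cKO replicate 3 reached above control replicates 1 and 2. The log2 fold change was -0.38 (SE 0.19; edgeR adjusted p = 0.682). It stayed at -0.38 with replicate number as a block, then below an unadjusted p of 0.05 (adjusted p = 0.136) but short of the size threshold. Etv4 had 9.81, 5.51 and 16.8 CPM in cKO against 8.17, 9.05 and 14.3 CPM in control libraries, with replicate 3 again the highest of each group. Its log2 fold change was 0.03 (SE 0.42) with all libraries and -0.45 without cKO replicate 3.

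The promoter of Etv1, which was lower in all 3 cKO libraries than in any control library, is shown as the counterpart of that of Spred1. Etv1 lies on chromosome 12, positions 38779380 to 38870484, and the first of its windows is chr12:38779832-38780131 on the plus strand of GRCm38.p6, with capitals from the start site on. It has 48.7% GC and 12 CpG dinucleotides, beside the same medians of 52.7% and 7.
Etv1: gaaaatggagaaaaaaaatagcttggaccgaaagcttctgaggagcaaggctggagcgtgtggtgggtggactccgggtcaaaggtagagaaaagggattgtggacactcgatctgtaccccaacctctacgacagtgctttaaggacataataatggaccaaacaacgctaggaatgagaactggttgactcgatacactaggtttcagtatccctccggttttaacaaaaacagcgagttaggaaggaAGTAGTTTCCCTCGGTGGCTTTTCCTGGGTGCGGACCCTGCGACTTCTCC

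ETS factors bind sites around the core of the letters CCGGAAGT. RefSeq windows were at hand for 31 of the 41 FGF genes (40 windows). These are not the same set as the 31 tested genes, and Fgfr1 had no window. Both strands of the 40 windows were searched for the letters CCGGAAGT. They occurred in 2 windows, those of Fgfrl1 and Frs2, and in 3.89% of all 32851 windows. The letters TGACGTCA, a cyclic AMP response element, occurred in 0 of the 40 and in 1.79% of all windows. The Fgfrl1 site is at chr5:108694171-108694198 on the plus strand and the Frs2 site at chr10:117148519-117148546 on the minus strand (GRCm38.p6), with the motif in capitals starting 48 and 62 bases before the start site. Neither gene differed between groups beyond its spread, and a match is a description of the sequence only.
Fgfrl1: cgcagattggCCGGAAGTtgtgcggggc
Frs2: ccccgctcccCCGGAAGTgcttgtctag

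**Figure D3:**
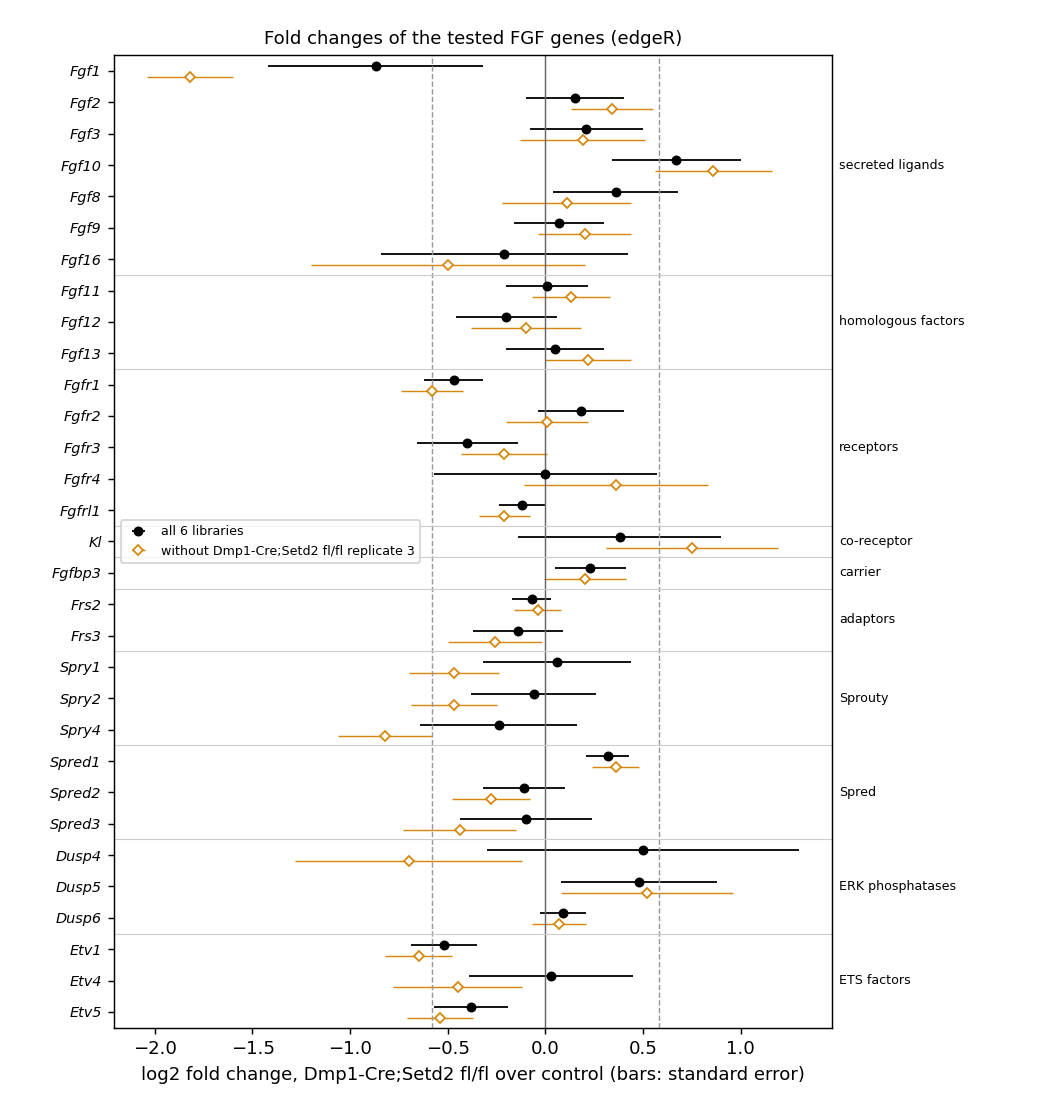
Log2 fold change, cKO over control, of the 31 tested FGF genes by edgeR, with all 6 libraries (black circles) and without cKO replicate 3 (open orange diamonds); bars are standard errors and dashed lines mark the study's threshold of 0.58 in size. Fgf1 moves from -0.87 to -1.82 and Spry4 from -0.24 to -0.82 between the settings, whereas Fgfr1 moves from -0.47 to -0.58 and Spred1 from 0.32 to 0.36.

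Replicate 3 of both groups lay above the other 4 libraries in 13 of the 31 FGF genes (41.9%, against 22.6% of all tested genes) and below them in 6 (19.4%, against 21.7%). Those above were Fgf1, Fgf16, Fgfr2, Fgfrl1, Frs3, Spry1, Spry2, Spry4, Spred2, Spred3, Dusp4, Etv4 and Etv5, and those below were Fgf2, Fgf11, Fgf12, Fgf13, Fgfr3 and Fgfr4. Most Sprouty, Spred and ETS genes were thus high in the libraries with the most epithelial marker RNA. The ratio of replicate 3 to the mean of replicates 1 and 2 was 4.92 in cKO and 3.34 in control libraries for Dusp4, 2.36 and 1.43 for Spry1, 2.51 and 1.35 for Spry4, and 2.2 and 1.66 for Etv4. For Fgfr4 it was 0.324 in cKO and 0.298 in control libraries, and for Fgfr3 0.624 and 0.638. Of the 12 dental epithelium markers, 9 had both replicate 3 libraries above the other 4, and of the 6 endothelium markers 5 did (summed level 267 to 671 CPM in cKO and 270 to 427 CPM in control libraries). Osteoblast and osteocyte markers (4 genes) summed to 144, 125 and 214 CPM in cKO against at least 338 CPM in every control library, and mural cell markers (6 genes) to 645 to 717 CPM in cKO against 561 to 595 CPM in control libraries, both without overlap. Neutrophil markers (6 genes) summed to 67.2, 134 and 5.16 CPM in cKO against 20.5, 11.7 and 4.37 CPM in control libraries, lowest in replicate 3 of each group. The part of these cells in the FGF levels was not tested. Skeletal muscle markers summed to 2.07 to 2.97 CPM in cKO and 2.32 to 2.39 CPM in control libraries, with Myod1, Myog, Myh3 and Ckm at or near 0.

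**Figure D4:**
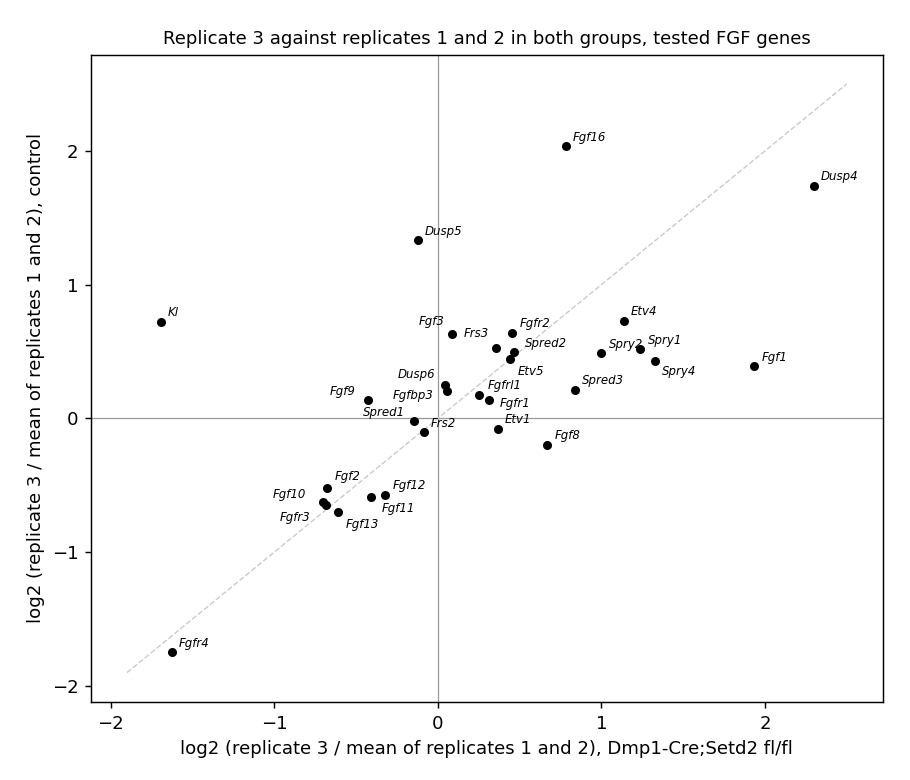
Ratio of replicate 3 to the mean of replicates 1 and 2 on a log2 scale for the tested FGF genes, in cKO (x axis) and in control libraries (y axis), with 1 point per gene and a dashed line where both ratios are equal. Dusp4 (4.92 and 3.34 before taking logs) and Fgfr4 (0.324 and 0.298) lie at opposite ends, and Fgf1 (3.82 and 1.31) lies far right of the line.

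When replicate 3 of both groups was left out, 6 of 32 tested FGF genes passed the study's thresholds (18.8%, against 12.0% of all genes), with Fgf1, Spry4 and Etv1 lower and Fgf10, Kl and Dusp5 higher. With 2 libraries per group this rests on fewer values, and the mix of directions was even. At an adjusted p under 0.05 in edgeR, Fgf1 and Etv1 (log2 fold change -0.67, adjusted p = 0.0421) were lower and Dusp5 higher, 3 of 32 (9.38%, against 6.81% of all genes). With limma voom, which weights libraries by quality, 4 of 31 FGF genes met the study's thresholds (9.35% of all genes), Fgf1 and Etv1 lower and Kl and Dusp5 higher, and 4 passed an adjusted p under 0.05 (Fgf1, Fgfr1, Dusp5 and Etv1; 8.38% of all genes). In neither setting did the feedback genes go one way, with Etv1 lower and Dusp5 higher in both.

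Of the other genes of the pathway, 37 were tested: 17 of the relay from the receptor to ERK, 12 that restrain FGF or ERK signalling and 8 that respond to ERK. Of these, 2 passed the study's thresholds (5.41%, against 3.81% of all genes), Egr1 lower and Myc higher, and none passed an adjusted p under 0.05. Egr1, an immediate early gene, had 34.9, 18.1 and 37.8 CPM in cKO against 162, 173 and 27.7 CPM in control libraries. Control replicate 3 lay within the cKO range. The log2 fold change of Egr1 was -2.0 (SE 0.67; edgeR adjusted p = 0.626), and with replicate number as a block it was -1.74 and no longer called (adjusted p = 0.545). Without replicate 3 of both groups it was -2.65 (edgeR adjusted p = 0.00158). It was not called without cKO replicate 2 (-1.73), control replicate 1 (-1.73) or control replicate 2 (-1.65). Myc, a growth regulator, had 26.5, 36.5 and 20.6 CPM in cKO against 16, 18.4 and 21.5 CPM in control libraries. Replicate 3 gave the overlap, and the log2 fold change of 0.58 (SE 0.23; edgeR adjusted p = 0.647) lay at the threshold and missed it, at 0.56, with replicate number as a block. Without replicate 3 of both groups it was 0.88 (edgeR adjusted p = 0.0153). Myc was not called without cKO replicate 1 or 2 (0.62 and 0.34) or control replicate 1 or 2 (0.48 and 0.57).

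None of the 17 relay genes passed the study's thresholds, and 15 of them had a positive log2 fold change, beside 8688 of all 16519 tested genes. The median of the relay genes was 0.09, against 0.02 over all genes. The groups did not overlap in 10 of the 37 genes (27.0%, against 15.2% of all genes), among them Grb2, Sos1, Sos2, Nras and Dusp1, which were higher, and Araf, Cbl and Lztr1, which were lower. Dusp1, a phosphatase of MAP kinases, had 41.2, 55.8 and 37.5 CPM in cKO against 31.7, 33.5 and 29.1 CPM in control libraries (log2 fold change 0.51, SE 0.17; edgeR adjusted p = 0.626). It was 0.50 with replicate number as a block (edgeR adjusted p = 0.0866) and 0.63, a call, without cKO replicate 3 (edgeR adjusted p = 0.0837). Sos2, a RAS exchange factor, had 21.7, 21.9 and 22.7 CPM in cKO against 19, 16.8 and 17.6 CPM in control libraries (log2 fold change 0.31, SE 0.12; edgeR adjusted p = 0.638). Both were chosen here after their values were seen.

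The 10 FGF genes with too few counts for a test were Fgf7 (43 counts over the 6 libraries), Fgf22 (38), Fgf17 (52), Fgf18 (20), Fgf20 (1), Fgf21 (4), Fgf14 (62), Klb (9), Fgfbp1 (3) and Spry3 (21). They include the epithelial ligand Fgf20 of the mouse tooth bud and the endocrine pair of the ligand Fgf21 and its co-receptor Klb. All had a mean of at most 0.649 CPM in either group. With no filter on low counts, none of them had an unadjusted p under 0.05 by edgeR.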

How the data were processed

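The deposited table holds, for 6 libraries, whole-number counts per gene that the authors made with HISAT2 alignment and unstranded HTSeq counting. Bowtie2, DESeq2 and GRCm39 also stand in the submitters' processing notes. Of 24199 genes in both annotations, the deposited positions overlap the same gene for 99.9% in GRCm38.p6 RefSeq and 15.2% in GRCm39 GENCODE M39, so positions are given as GRCm38. The deposited table also holds the authors' own comparison, with a signal (mean normalized count), a ratio (fold change), a log2 ratio and p-values. None of these was used.

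The test was the robust quasi-likelihood test of edgeR 4.0.16 (R 4.3.3) after TMM scaling, on the 16519 genes kept by filterByExpr at its minimum count of 10, with Benjamini-Hochberg adjustment over all of them. The biological coefficient of variation was 25.3%. Intervals are 95% intervals from edgeR's standard errors and, like the p-values, cover only the spread between libraries. Gene lengths, for 40 of 41 genes, are GENCODE M39 merged exons matched by Ensembl ID. Promoter sequences are from RefSeq. Scripts were tested on simulated data.

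Members and lists were chosen with earlier results of these data known. Values in every library were to be given for FGF genes past the thresholds, without overlap, or highest per length in their role; Fgf10, Fgfr2, Fgfr3, Fgfr4, Dusp4, Dusp5, Etv4, Dusp1 and Sos2 were added after their values were seen. Replicate numbers come from the labels. Across genes, libraries of the same number deviated together from their group means (r = 0.453, 0.465 and 0.663), which was read as pairing by number. However, cKO replicate 1 correlated with control replicate 2 at 0.455, and cKO replicate 2 with control replicate 1 at 0.38. Only replicate 3 thus stood apart, and whether replicates 1 and 2 are paired by number is not known. Alternatives were DESeq2 1.42.0, RLE factors, no filter, a strict filter of 10 counts in every library, limma 3.58.1 voom with quality weights, the replicate block, each library left out, replicate 3 of both groups left out, and an adjusted p under 0.1.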

Additional observations from a re-analysis of the deposited data

How the results depend on the processing

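With all 6 libraries, 0 FGF genes were lower, 0 were higher and 0 passed an adjusted p under 0.05. With limma voom the counts were 2, 2 and 4, without replicate 3 of both groups 3, 3 and 3, and leaving out 1 library at a time they ranged from 0 to 4, from 0 to 1 and from 0 to 1. With no filter on low counts 1 was higher (Fgf10). The replicate block also gave 1 higher (Fgf10), gave 1061 calls over all genes in place of 629, left 0 of 2 other pathway genes called, and changed no other call among the FGF genes at the study's thresholds. Calls over all genes were 1545 with voom, 2011 without replicate 3 of both groups and 365 to 1838 with 1 library left out. The 2 calls of the other pathway list became 1 with no filter, 1 with the strict filter, and 0 to 5 with 1 library left out. The 5, without cKO replicate 3, were 13.5% of that list, against 10.9% of all genes. Leaving out replicate 3 of both groups gave 3 (8.11%, against 12.0% of all genes). The 3 genes without overlap became 3 to 13 with 1 library left out and 20 without replicate 3 of both groups. Groups of fewer libraries separate more easily, and the share over all genes is not given for these settings. These counts therefore cannot show whether the FGF genes separated more or less often than other genes in these settings. DESeq2 and RLE factors moved none of the FGF counts at the study's thresholds or at an adjusted p under 0.05. At an adjusted p under 0.1 the FGF count was 0 with edgeR and all 6 libraries, 1 (Fgfr1) with DESeq2, 6 with voom, 4 without replicate 3 of both groups and 2 without cKO replicate 3. In the same order, these were 0%, 3.23%, 19.4%, 12.5% and 6.25% of the tested FGF genes. Over all genes the shares were 0%, 1.35%, 15.3%, 12.2% and 5.94%.

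Of 33 named genes, 18 kept their direction in every setting, Fgfr1, Fgf1, Fgf10, Spred1 and Etv1 among them. Signs turned in 15. With voom the log2 fold change was 0.58 for Fgf16, -0.09 for Fgf13, 0.01 for Frs2, 0.04 for Frs3 and -0.14 for Spry1. With the block it was 0.01 for Fgfr4, -0.03 for Spry1 and -0.05 for Etv4, and Fgfr4 was also 0.01 with DESeq2, RLE factors and no filter. Without replicate 3 of both groups it was 0.51 for Fgf16, -0.03 for Fgf11, -0.27 for Spry1 and -0.16 for Etv4. With 1 library left out the ranges were -0.03 to 0.46 for Fgf3, -0.02 to 0.20 for Fgf9, -0.56 to 0.80 for Fgf16, -0.16 to 0.14 for Fgf11, -0.15 to 0.22 for Fgf13, -0.38 to 0.36 for Fgfr4, -0.26 to 0.06 for Frs3, -0.47 to 0.31 for Spry1, -0.47 to 0.16 for Spry2, -0.82 to 0.06 for Spry4, -0.28 to 0.07 for Spred2, -0.44 to 0.21 for Spred3, -0.70 to 1.31 for Dusp4 and -0.45 to 0.34 for Etv4. The cause was not tested. Kl was tested on 55 counts and Fgf16 on 123 over the 6 libraries, with standard errors of 0.52 and 0.63, and Dusp4 on 454 with 0.80. The part of counting error in these was not tested.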
